A study of Mus musculus with 7 samples.

Results

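The serotonin receptor genes described here are Htr1a, Htr1b, Htr1d, Htr1f, Htr2a, Htr2c, Htr3a, Htr4, Htr5a and Htr7. They were chosen by name, each matched exactly to the symbol of a probe set that carries 1 gene symbol, and they make up 10 of the 22180 genes measured. Each of the 10 had 1 such probe set, and each was found by its Entrez identifier in the RefSeq gene table under the same symbol. The data are 7 one-colour Affymetrix arrays of ribosome-bound RNA from mouse medial prefrontal cortex (mPFC), a region that weighs reward and threat. All mice came from a cross of Ribosome TRAP mice, which carry a ribosome tag that Cre switches on, with an ArcCre transgenic line, in which the activity-regulated gene Arc controls Cre. Tamoxifen was present while the mice met the stimulus, so that the ribosomes of cells active then became GFP-tagged, and these were pulled down with an antibody against GFP. The cocaine-activated group (4 arrays, numbered 4, 5, 6 and 7) received 15 mg/kg cocaine for 2 days, and the shock-activated group (3 arrays, numbered 4, 5 and 6) received 20 shocks of 0.5 mA and 2 s for 2 days. Strain, age and sex are not given in the labels. Neither untreated mice nor RNA taken ahead of the pull-down were analysed here. The tag marks cells by Arc activity and not by type, so a value averages over labelled cells of all types. Fewer cells of a type and less RNA per cell cannot be told apart in it. RNA of unlabelled cells may also have come through the pull-down, and its part in the values was not tested. Whether each array stands for its own animal or pool is not stated, so p-values measure only how far these arrays spread, and that spread may be technical.

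Serotonin reaches the cortex in fibres from the raphe nuclei of the brainstem and acts there through receptors of several families. Most are G protein-coupled: the 5-HT1 and 5-HT5 receptors act mainly through the inhibitory Gi and Go proteins, the 5-HT2 receptors through Gq and phospholipase C, and the 5-HT4 and 5-HT7 receptors through Gs and adenylyl cyclase. The 5-HT3 receptor is instead a cation channel that serotonin opens. Cocaine blocks the serotonin transporter as well as the dopamine transporter, so that both transmitters stay longer outside the cell. The comparison asks whether the receptor transcripts under translation differed between mPFC cells labelled during a rewarding and during an aversive experience.

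The stretches upstream of 2 of the genes are given. The first, shown because it places Htr1b beside a gene that shares a probe set with it, is the window of Htr1b, the gene with the largest difference between the groups among the 10. This window lies inside the span that RefSeq gives to D430036J16Rik, a long noncoding RNA gene annotated on the opposite strand whose span overlaps that of Htr1b by 1903 bases, and a second probe set is listed for both genes. The second, shown for its letters alone, is the window of Htr2c, the 1 gene of the set whose upstream window holds the AP-1 pattern TGANTCA, the kind of site that Fos and Jun proteins bind in active neurons. Both are from RefSeq (GRCm38.p6), run 5′ to 3′ on the gene's strand over the 250 bases before the annotated start, and carry the AP-1 match in capitals.
Htr1b, chr9:81633833-81634082, minus strand: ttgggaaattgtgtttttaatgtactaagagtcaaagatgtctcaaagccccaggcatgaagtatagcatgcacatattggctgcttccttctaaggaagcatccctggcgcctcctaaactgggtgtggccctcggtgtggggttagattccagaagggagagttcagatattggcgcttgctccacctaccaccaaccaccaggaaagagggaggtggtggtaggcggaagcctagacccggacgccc
Htr2c, chrX:146962263-146962512, plus strand: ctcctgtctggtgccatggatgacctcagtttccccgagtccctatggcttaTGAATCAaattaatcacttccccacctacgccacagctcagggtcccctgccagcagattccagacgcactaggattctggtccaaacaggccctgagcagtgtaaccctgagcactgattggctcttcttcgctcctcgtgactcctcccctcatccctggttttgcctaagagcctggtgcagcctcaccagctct

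The match in the Htr2c window begins 198 bases before the start. Upstream windows were on hand for 9 starts of 8 of the 10 genes. The AP-1 pattern, read on both strands, occurred in 1 of the 9 windows and in 6.75% of all 32851 windows of the same length. The cAMP response element TGACGTCA occurred in 0 of the 9 and in 1.55% of all windows. Its half-site TGACG, read on both strands and contained in the full element, occurred in 1 of the 9, that of Htr7, and in 17.8% of all. A match is a description of these letters and not a site of binding.

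None of the 10 receptor genes passed the test for a difference between the groups. With limma on log2 values, 0 of 10 passed an adjusted p of 0.05 (smallest adjusted p = 0.938), against 0% of all 22180 genes. At an unadjusted p of 0.05 the count was also 0 of 10 (the smallest was 0.0926, for Htr1b), against 3.10% of all genes. The cocaine and shock values overlapped for all 10, where 2.37% of all genes had groups that did not overlap. The mean was higher in the cocaine group for 5 genes and lower for 5, against 50.9% of all genes with a higher mean, and the median difference was -0.0004 on the log2 scale, against 0.0016 over all genes. The 95% interval of each of the 10 differences, not corrected for their number, included 0 and stayed within 1.5-fold in both directions. The widest reach was that of Htr1b, up to 0.47 on the log2 scale.

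**Figure D1:**
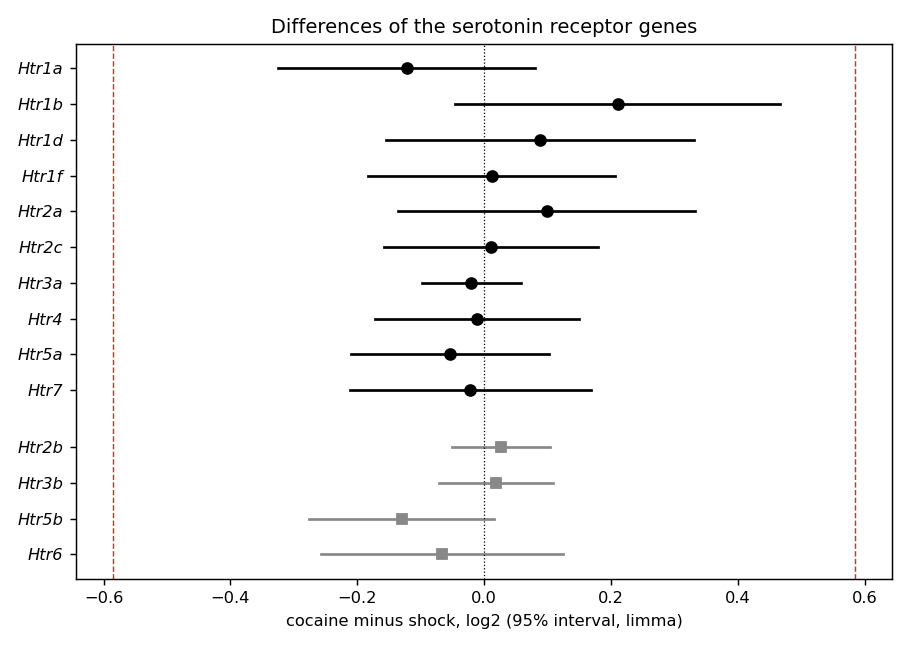
Difference between cocaine and shock arrays for each serotonin receptor gene, on the log2 scale, with the 95% interval from limma (x axis), one gene per row. Black circles are the 10 genes described here, grey squares the other 4 receptor genes, and red dashed lines mark 1.5-fold; every interval includes 0 and none reaches a dashed line.

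Among the inhibitory 5-HT1 receptors, Htr1b had the largest difference. Htr1b encodes a receptor found largely on axon terminals, where it lowers transmitter release (probe set 17529218, Entrez 15551). It had log2 values of 8.12, 8.38, 8.24 and 8.21 on cocaine arrays 4, 5, 6 and 7, against 7.82, 8.24 and 8.02 on shock arrays 4, 5 and 6. Shock array 5 lay within the cocaine values, and shock arrays 4 and 6 lay below all of them. The means were 8.24 ± 0.11 (SD, n = 4) on cocaine arrays and 8.03 ± 0.21 (SD, n = 3) on shock arrays. The difference was 0.21 (SE 0.11), or 1.16-fold with a 95% interval of 0.969 to 1.38, beside a pooled SD within groups of 0.16. It did not pass the test (limma, unadjusted p of 0.0926, adjusted p = 0.938). It was 0.32 without shock array 5 (unadjusted p of 0.0167, adjusted p = 0.943) and 0.11 without shock array 4.

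A second probe set, 17519868, lists both Htr1b and D430036J16Rik and therefore was not among the values chosen by the rule. On cocaine arrays 4, 5, 6 and 7 it had 8.30, 8.22, 7.81 and 8.02, against 8.42, 8.19 and 7.94 on shock arrays 4, 5 and 6. Its highest value fell on shock array 4, the array on which the probe set of Htr1b alone was lowest, and its lowest on cocaine array 6. Its difference was -0.099 (SE 0.15, limma, adjusted p = 0.949), opposite in sign to that of the first. The mean of both probe sets differed by 0.056 (adjusted p = 0.948). Over the 7 arrays the probe sets had a Pearson r of -0.38 (Spearman -0.36), given as a description of arrays that differ in more than this gene. The strand that each probe set reads is not stated, so RNA of the 2 overlapping genes cannot be told apart on the second, and whether their differences were unequal was not tested. These values were looked up after the probe set names had been seen.

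**Figure D2:**
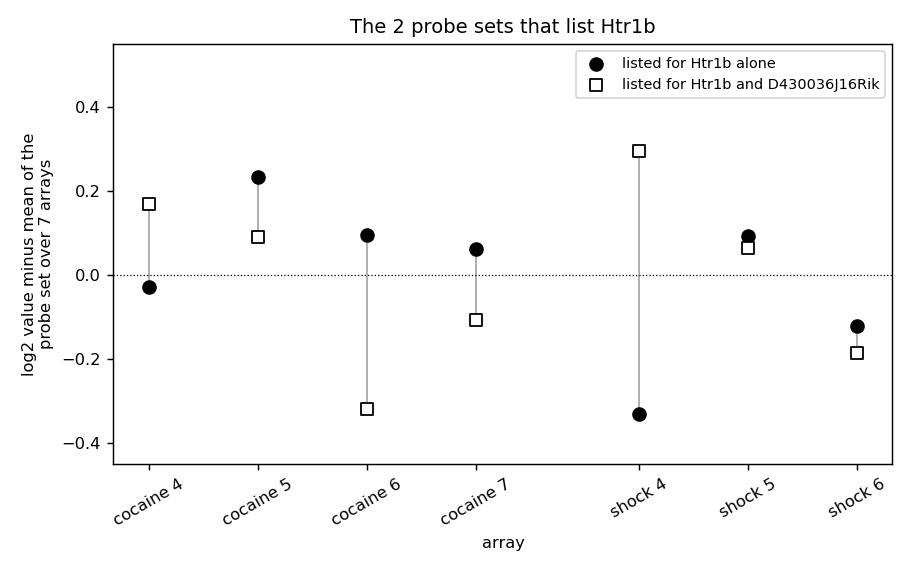
Log2 value on each of the 7 arrays (x axis, cocaine arrays left of shock arrays) minus the mean of the probe set over the arrays (y axis), for the probe set listed for Htr1b alone (filled circles) and the one listed for Htr1b and D430036J16Rik (open squares). Grey lines join the values of an array; the probe sets lie farthest apart on shock array 4 and cocaine array 6, in opposite directions.

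Htr1a encodes the receptor that opens inwardly rectifying potassium channels and serves raphe neurons as their autoreceptor (probe set 17289656). It had 5.89, 5.89, 5.56 and 5.82 on cocaine arrays 4, 5, 6 and 7, against 5.89, 5.94 and 5.91 on shock arrays 4, 5 and 6. Cocaine array 6 was the lowest by a wide margin, and the remaining 6 arrays spanned little. The difference was -0.12 (SE 0.085, limma, adjusted p = 0.938) and was -0.046 without cocaine array 6.

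Htr1d encodes another terminal receptor, a target of triptan drugs in people (probe set 17420113). It had 6.53, 6.36, 6.80 and 6.45 on cocaine arrays 4, 5, 6 and 7, against 6.47, 6.46 and 6.41 on shock arrays 4, 5 and 6. Here cocaine array 6 was the highest, and cocaine array 5 the lowest. The difference of 0.088 (SE 0.10, limma, adjusted p = 0.938) was -0.0003 without cocaine array 6.

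Htr1f, also an inhibitory receptor (probe set 17331431), had 6.74, 6.41, 6.55 and 6.55 on cocaine arrays 4, 5, 6 and 7, against 6.47, 6.55 and 6.63 on shock arrays 4, 5 and 6. The shock values lay inside the range of the cocaine values, and 3 arrays of both groups held an identical deposited value. The difference was 0.0115 (SE 0.082, limma, adjusted p = 0.989). Leaving out cocaine array 4 gave -0.048, and leaving out shock array 4 gave -0.028.

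Htr5a encodes a further Gi-coupled receptor (probe set 17435570). It had 8.11, 8.01, 7.86 and 8.10 on cocaine arrays 4, 5, 6 and 7, against 8.07, 8.05 and 8.09 on shock arrays 4, 5 and 6. The shock arrays lay close together, and cocaine array 6 was again the lowest. The difference of -0.054 (SE 0.066, limma, adjusted p = 0.939) was -0.0009 without cocaine array 6.

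The Gq-coupled 5-HT2 receptors did not separate the groups either. Htr2a encodes the receptor through which classical psychedelic drugs act, and in cortex it is known from pyramidal neurons of the deep layers (probe set 17301926). It had 7.90, 8.03, 8.05 and 7.94 on cocaine arrays 4, 5, 6 and 7, against 7.64, 7.97 and 8.03 on shock arrays 4, 5 and 6. Shock array 4 lay below all others, and the other two shock arrays lay among the cocaine arrays. The means were 7.98 ± 0.07 (SD, n = 4) on cocaine arrays and 7.88 ± 0.21 (SD, n = 3) on shock arrays, a difference of 0.098 (SE 0.098, limma, adjusted p = 0.938). Without shock array 4 it was -0.020.

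Htr2c encodes a receptor whose messenger RNA is edited by ADAR enzymes, and it is abundant in choroid plexus (probe set 17538411). It had 9.12, 9.30, 9.36 and 9.30 on cocaine arrays 4, 5, 6 and 7, against 9.30, 9.33 and 9.16 on shock arrays 4, 5 and 6. The lowest and the highest array both belonged to the cocaine group. The difference was 0.011 (SE 0.071, 95% interval -0.16 to 0.18, limma, adjusted p = 0.987). Leaving out cocaine array 6 gave -0.018, and leaving out shock array 6 gave -0.042. These arrays do not separate edited from unedited transcripts.

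The choroid plexus transcript Ttr, which encodes transthyretin, varied far more. It had 10.45, 10.22, 7.58 and 7.17 on cocaine arrays 4, 5, 6 and 7, against 11.13, 8.40 and 10.40 on shock arrays 4, 5 and 6. Its range over the 7 arrays was 3.95 on the log2 scale, and that of Htr2c was 0.24. The 4 arrays with Ttr above 10 were cocaine arrays 4 and 5 and shock arrays 4 and 6. Their Htr2c values were 9.12, 9.30, 9.30 and 9.16, in that order. On cocaine arrays 6 and 7 and shock array 5, Htr2c was 9.36, 9.30 and 9.33. The part of choroid plexus RNA in the Htr2c values was not tested. Of the choroid plexus list, 8 of 9 measured genes had lower means in the cocaine group. The median was -0.17, or -0.083 without cocaine array 6 and -0.098 without shock array 4. Only 5 of the 9 had a mean above the dim level of 5.46, which stands in for background. The gene at the median, Folr1, lay under it. The mean level of the list ran from 5.79 to 6.40 in the cocaine group and from 6.05 to 6.60 in the shock group.

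The Gs-coupled receptors, which raise cyclic AMP, had small differences with intervals on both sides of 0. Htr4 (probe set 17351168) had 7.11, 6.82, 6.98 and 6.96 on cocaine arrays 4, 5, 6 and 7, against 6.97, 6.99 and 6.97 on shock arrays 4, 5 and 6. All shock values lay inside the cocaine range, which cocaine arrays 4 and 5 set at its ends. Its difference was -0.012 (SE 0.068, 95% interval -0.17 to 0.15, limma, adjusted p = 0.985), or 0.037 without cocaine array 5 and 0.0083 after median centring.

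Htr7 (probe set 17364169) had 6.54, 6.66, 6.45 and 6.77 on cocaine arrays 4, 5, 6 and 7, against 6.65, 6.57 and 6.67 on shock arrays 4, 5 and 6. The shock values again lay inside the cocaine range. The difference was -0.022 (SE 0.080, 95% interval -0.21 to 0.17, limma, adjusted p = 0.976). Leaving out cocaine array 6 gave 0.030, leaving out cocaine array 4 gave 0.0002, and array weights gave 0.016.

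Htr3a encodes the channel subunit that every 5-HT3 receptor needs, and in cortex it marks a class of interneurons (probe set 17526717). It had 6.82, 6.82, 6.77 and 6.82 on cocaine arrays 4, 5, 6 and 7, against 6.86, 6.82 and 6.80 on shock arrays 4, 5 and 6. On 4 arrays, from both groups, the deposited value was identical, and the pooled SD within groups was 0.027, lower than that of all but 5.7% of genes. Its difference was -0.021 (SE 0.033, 95% interval -0.099 to 0.057, limma, adjusted p = 0.949), and it was -0.003 without shock array 4, -0.0088 without cocaine array 6 and -0.0005 after median centring. Other markers of these interneurons had lower means in the cocaine group in 11 of 13 cases (median -0.078, or -0.044 without cocaine array 4), with 0 past the adjusted p of 0.05. Over all genes, 50.9% had a higher mean. The 11 include Sp8 (-0.0002, under the dim level) and Cnr1 (-0.0047), which hardly differed. The other 2 of the 13 had higher means, 1 of them without overlap of the groups, as for 1.25% of all genes in this direction. Vip, the gene of vasoactive intestinal peptide, had means of 7.14 ± 0.23 (SD, n = 4) on cocaine arrays and 7.31 ± 0.12 (SD, n = 3) on shock arrays. The Vip difference was -0.17 (SE 0.13), or -0.087 without cocaine array 4 and -0.27 without cocaine array 6. The list of Pvalb- and Sst-type interneuron markers also had lower means, in 8 of 12 cases (median -0.064). The 4 with higher means included Pvalb itself (0.030), which lay under the dim level. This list also holds Gad1, Gad2 and Slc32a1, genes of inhibitory neurons in general, so it does not set the classes apart.

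**Figure D3:**
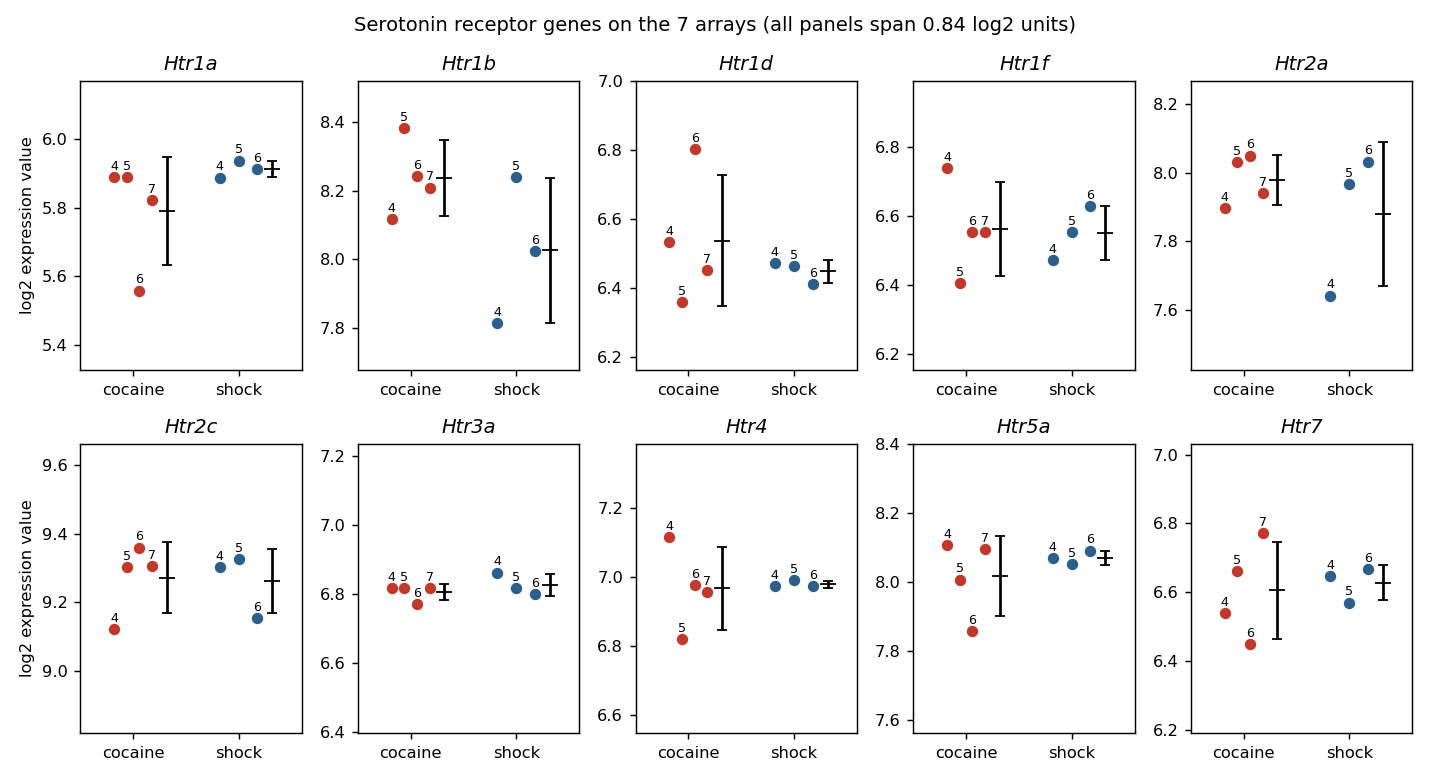
Log2 expression value (y axis, each panel spanning the same height) of the 10 serotonin receptor genes on the cocaine arrays (red, left) and the shock arrays (blue, right), with the array number above each point and the group mean ± SD beside them. The groups overlap in every panel, and cocaine array 6 sets one end of the range for Htr1a, Htr1d, Htr2a, Htr2c, Htr3a, Htr5a and Htr7.

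Cocaine array 6, which stood apart from the rest over all genes, also held many extreme values of the receptors. Its Pearson correlation over all genes was 0.993 with each other array, against 0.996 to 0.997 among the remaining 6. It was the highest of the 7 arrays for Htr1d, Htr2a and Htr2c and the lowest for Htr1a, Htr3a, Htr5a and Htr7, so that 7 of the 10 receptors had an extreme value there. Over all genes, 40.4% had their extreme on that array, against 23.4% to 30.1% on each other array. The mean absolute deviation of the receptors from the other arrays was 0.15 on cocaine array 6 and 0.046 to 0.11 on the others, and that of all genes was 0.14 on cocaine array 6 and 0.084 to 0.099 on the others.

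The receptors did not deviate together on that array: their median deviation was 0.0001, with members far above and far below their own mean. Shock array 4 held the lowest Htr1b and the lowest Htr2a, and shock array 6 held no extreme value of any of the 10. Pooled within groups, the SD of the receptors had a median of 0.12, against 0.093 over all genes and 0.077 over genes above the dim level. That level, 5.46, is the 95th percentile of olfactory and vomeronasal receptor genes and stands in for background, and all 10 receptors had a mean above it.

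**Figure D4:**
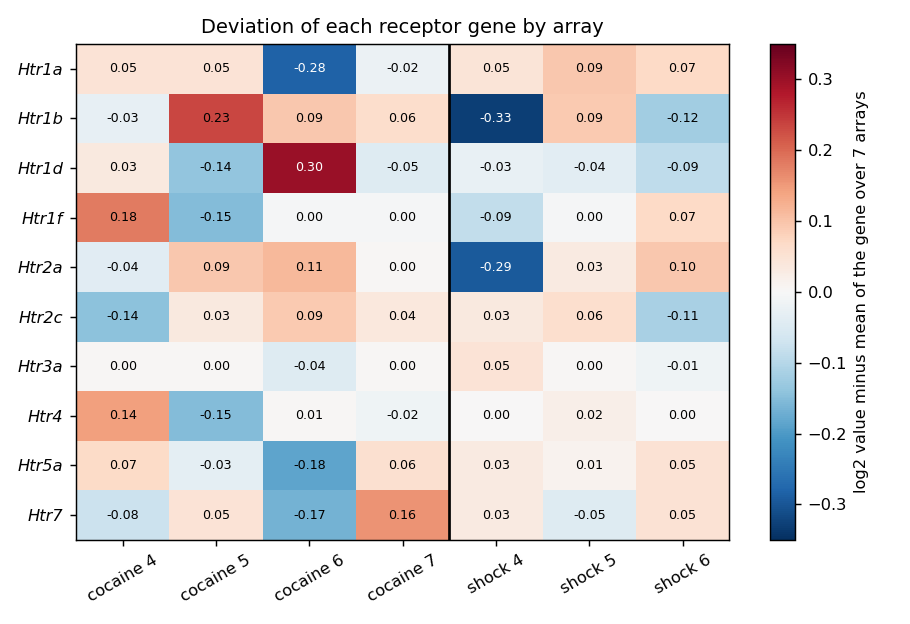
Log2 value of each receptor gene (rows) on each array (columns, cocaine arrays left of the line, shock arrays right of it) minus the mean of that gene over the 7 arrays; red is above and blue below that mean. The darkest cells are Htr1d and Htr1a on cocaine array 6, in opposite directions, and Htr1b and Htr2a on shock array 4, both below the mean.

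Between receptors, several of the 45 pairwise correlations over arrays rested on cocaine array 6. Htr1a and Htr1d had a Pearson r of -0.90 over 7 arrays and -0.05 without it, and Htr1a and Htr5a had 0.86 and -0.31. Others did not rest on it: Htr1f and Htr4 had 0.89 with and without it, Htr1b and Htr2a had 0.79 and 0.78, and Htr2a and Htr3a had -0.87 and -0.95. All points of a pair share their array, and with 7 arrays these values are descriptions only. Among 12663 other named genes above the dim level, those with the closest profile over the 7 arrays were Tcl1b1 (r = 0.977) and Xab2 (0.975) for Htr1b, Esf1 (0.984) and Apc2 (0.978) for Htr2a, and Alms1 (0.977) and Lair1 (0.969) for Htr2c. For Htr3a they were Gpr31b (0.996) and Pms2 (0.995), for Htr1a Cables1 (0.992) and Spsb4 (0.990), and for Htr1d Fhl2 (0.994) and Rasgrp2 (0.985). For Htr1f they were Tomm40 (0.993) and Polr3gl (0.976), for Htr4 Rac3 (0.991) and Pole4 (0.986), for Htr5a Lrfn1 (0.981) and Odf3l2 (0.980), and for Htr7 Nsmce1 (0.958) and Nanp (0.956). Each is the extreme of a wide search on few arrays, so no test is attached.

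Levels of activity-regulated genes and of cell type markers also varied between the arrays. The mean level of 15 immediate early genes, a readout of recent neuronal firing, was 8.82, 8.998, 8.15 and 8.67 on cocaine arrays 4, 5, 6 and 7, against 7.74, 8.90 and 7.70 on shock arrays 4, 5 and 6. Shock arrays 4 and 6 were the lowest of the 7 both for these genes and for Htr1b, and cocaine array 5 was the highest for both, but the second Htr1b probe set was highest on shock array 4. All 15 of these genes had a higher mean in the cocaine group, with a median difference of 0.50 (0.20 without shock array 4, 0.32 without cocaine array 5 and 0.90 without shock array 5). Vascular markers had lower means in the cocaine group in 12 of 12 cases (list level 6.81 to 7.14, against 7.13 to 7.58 in the shock group), and astrocyte markers in 10 of 10 (8.66 to 8.95, against 8.84 to 8.98). The vascular median was -0.28, or -0.18 without shock array 6, and the astrocyte median -0.15, or -0.11 without cocaine array 7. Striatal markers had higher means in 9 of 9 cases (9.38 to 9.55, against 9.25 to 9.34), with a median of 0.12, or 0.099 without shock array 5. Excitatory neuron markers, all 9 above the dim level, ran from 9.43 to 9.51 in the cocaine group and from 9.41 to 9.49 in the shock group. Other lists were mixed: deep-layer neuron markers had 7 higher and 4 lower means in the cocaine group. Oligodendrocyte lineage markers had 6 higher and 3 lower, and microglia markers 3 higher and 6 lower. In all of these lists 0 genes passed the adjusted p of 0.05. The part of these shifts in the receptor values was not tested.

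Of the remaining serotonin receptor genes, 4 were measured and 0 passed the adjusted p of 0.05. Htr5b, the mouse relative of Htr5a that is a pseudogene in people, had 6.11, 6.20, 6.19 and 6.26 on cocaine arrays 4, 5, 6 and 7, against 6.33, 6.21 and 6.42 on shock arrays 4, 5 and 6. Only shock array 5 lay within the cocaine values, and the difference was -0.13 (SE 0.061, limma, unadjusted p of 0.0724, adjusted p = 0.938). Htr6, coupled to Gs, differed by -0.0665 (SE 0.080), or -0.0021 without cocaine array 5 and -0.12 without cocaine array 7. The Gq-coupled Htr2b (0.027) and the channel subunit Htr3b (0.019, or -0.0061 without cocaine array 7) lay under the dim level on average, and Htr3b had the same value on all 3 shock arrays.

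Genes that make, carry or break down serotonin had differences of both signs, and 0 passed the adjusted p of 0.05. Of 13 listed, 11 were measured and 5 lay above the dim level; 6 had higher and 5 lower means in the cocaine group, with a median of 0.031 (-0.0031 without cocaine array 6). Tph2, the serotonin-synthesising enzyme of raphe neurons, had 5.004, 4.95, 4.97 and 4.95 on cocaine arrays 4, 5, 6 and 7, against 4.95, 4.73 and 4.84 on shock arrays 4, 5 and 6, all under the dim level. The serotonin transporter gene Slc6a4 was under it as well, with means of 4.52 on cocaine arrays and 4.53 on shock arrays. Maoa, the gene of monoamine oxidase A, which degrades serotonin, had 7.63, 7.69, 7.64 and 7.53 on cocaine arrays 4, 5, 6 and 7, against 7.82, 7.68 and 7.80 on shock arrays 4, 5 and 6. Shock array 5 lay within the cocaine values, and the difference of -0.14 (SE 0.056) had an unadjusted p of 0.0381 and an adjusted p = 0.938 by limma.

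Downstream, 26 of 31 listed genes of G proteins and effectors were measured, with 12 higher and 14 lower means in the cocaine group and a median of -0.003 (0.019 without cocaine array 6). The inhibitory G protein gene Gnai2 had the smallest p of the list. It had 9.94, 9.94, 9.85 and 9.87 on cocaine arrays 4, 5, 6 and 7, against 10.07, 9.97 and 10.05 on shock arrays 4, 5 and 6, and the groups did not overlap, as for 1.11% of all genes in this direction. Its difference of -0.13 (SE 0.043) did not pass the correction (limma, unadjusted p of 0.022, adjusted p = 0.938). Among genes with a higher mean in the cocaine group, the adenylyl cyclase gene Adcy5 had the smallest p, with a difference of 0.075 (SE 0.064).

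Partners and regulators of the receptors, all 10 measured, had 4 higher and 6 lower means (median -0.017, or 0.0052 without shock array 5). Cav1, the caveolin gene, which endothelial cells also express, differed by -0.17 (SE 0.072, limma, unadjusted p of 0.0501, adjusted p = 0.938). The groups did not overlap, as for 1.11% of all genes in this direction. Without cocaine array 7, the lowest, the difference was -0.11. Vascular markers had lower means in the cocaine group as well, and their part in the Cav1 difference was not tested. Adarb1, an enzyme that edits Htr2c, differed by 0.015 (SE 0.034), or -0.0019 without cocaine array 7. Among other monoamine receptors, 11 of 18 were measured, with 3 higher and 8 lower means, and their median was -0.067 (-0.013 without cocaine array 6). Drd1, a dopamine receptor gene that is also one of the striatal markers, had the largest difference there (0.33, SE 0.10, limma, adjusted p = 0.938), without overlap of the groups, as for 1.25% of all genes in this direction. The adrenergic receptor gene Adra2c had the smallest p among those lower in the cocaine group (-0.12, SE 0.063). In these lists 0 genes passed the adjusted p of 0.05.

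**Figure D5:**
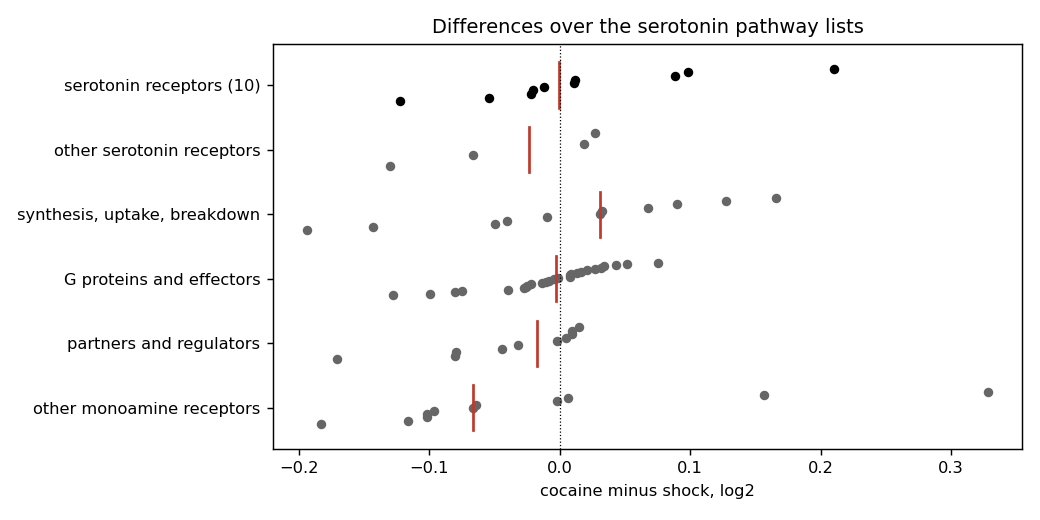
Difference between cocaine and shock arrays on the log2 scale (x axis) for each measured gene of the serotonin receptor set and of 5 related lists (rows); each point is a gene and the red bar is the median of the list. The receptor genes scatter on both sides of 0 with a median of -0.0004, and Drd1 is the point farthest to the right among the other monoamine receptors.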

How the data were processed

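The authors deposited a table of 41345 probe sets on 7 arrays, taken here as log2 values because they run from 1.12 to 13.44. Per the submitters' processing notes, Transcriptome Analysis Console was used; how probes were summarised, corrected for background and normalized is not given. Identical values on at least 2 arrays occur in 55.9% of probe sets. Array medians lay between 5.44 and 5.47, so a difference is relative to all else on the array, and precision is limited by how many arrays there are.

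Names came from the platform annotation (23521 probe sets with 1 symbol, 1814 with several, 16010 unnamed), and each of 22180 genes is represented by its probe set of highest mean over all arrays. Differences are cocaine minus shock, fitted in R 4.3.3 on all genes with lmFit and eBayes of limma 3.58.1 (two-sided, no covariate), and p-values were adjusted over all genes by Benjamini-Hochberg, with a threshold of 0.05. The scripts were tested on simulated data. The genes, lists and alternatives were chosen with earlier results of these data known. Named besides the 10 receptors were the other 4 receptors, the gene of smallest p per direction in each pathway list, Tph2, Slc6a4, Ttr and Vip, and the 2 genes with the closest profile to each receptor. The alternatives changed the arrays (each left out, or weighted), the scaling (quantile, median), the genes (without dim ones), the probe sets (their mean), the moderation (trend with robust, or none) and the design (a replicate block by title number). Added after the data had been seen was the second Htr1b probe set. Positions on the array are not used, since no build is named for it.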

Additional observations from a re-analysis of the deposited data

Results flagged for a closer look

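Among the 4 cocaine arrays, some values stood apart from the rest relative to the range of the group, though not always by much. Their gap to the nearest array took up more of that range than Dixon's 95% limit for 4 samples allows. For Htr3a, cocaine array 6 was the lowest (6.77 against 6.82). The gap was the whole range (1.0), since the other cocaine arrays hold an identical value. For Htr2b, cocaine array 6 was the highest (5.14 against 5.08, a ratio of 1.0), again against 3 identical values. With 3 identical values the ratio is 1.0 however small the gap. For Htr3b, cocaine array 7 was the highest (0.836), and for Cav1 cocaine array 7 was the lowest (0.966). Htr2b and Htr3b lay under the dim level on average. These are 4 of 26 measures tested, where chance passes about 5% of measures without ties. With 3 arrays, the shock group is too small for this rule.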

How the results depend on the processing

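Under each of the 17 alternatives, 0 of the 10 receptor genes and 0 of all genes passed an adjusted p of 0.05 with limma (smallest for a receptor 0.871). Of 152 receptor values under alternatives, 139 kept their direction. Leaving out dim genes, averaging probe sets of 1 symbol or changing the moderation cannot alter these differences. Those values were bound to keep their direction, so part of the 139 was fixed in advance. The replicate block repeats the differences found without cocaine array 7. The 13 that turned concern 7 genes, while Htr1a, Htr3a and Htr5a kept their sign, Htr3a and Htr5a at values as small as -0.0005 (Htr3a, median centring) and -0.0009 (Htr5a, without cocaine array 6). The second probe set turned Htr1b to -0.099. Array weights turned Htr2c to -0.013 and Htr7 to 0.016, and median centring turned Htr4 to 0.0083. Leaving out 1 array in turn gave ranges of 0.11 to 0.32 for Htr1b, -0.0003 to 0.15 for Htr1d, -0.048 to 0.064 for Htr1f, -0.020 to 0.17 for Htr2a, -0.042 to 0.061 for Htr2c, -0.061 to 0.037 for Htr4 and -0.078 to 0.030 for Htr7. The median over the 10 ran from -0.0162 to 0.0197. At an unadjusted p of 0.05, the count of receptors was 0 to 1 when 1 array was left out (Htr1b without shock array 5, where 3.55% of all genes passed). The count without overlap was 0 to 1 (Htr1b without shock array 5, Htr1a without shock array 4), where fewer arrays left 9.68% and 8.70% of all genes without overlap. Over all genes the share without overlap was 2.37%, 4.99% after quantile normalization and 11.4% after median centring. A value shared by both groups counted as overlap, and rescaling moves each array so that such ties can break. The part of broken ties in these shares was not tested. All genes at that p numbered 688 of 22180 (3.10%), 450 of 13769 (3.27%) with dim genes left out, 419 (1.89%) without moderation, 746 with array weights and 531 to 788 when 1 array was left out.

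With the title number as a replicate block the count of receptors at an unadjusted p of 0.05 was 1, and that over all genes was 915 (4.13%). The receptor was Htr1b (difference 0.22, limma, unadjusted p of 0.0136, adjusted p = 0.871). Number 7 occurs only in the cocaine group, so cocaine array 7 does not enter the difference under this block. Leaving that array out without a block gave Htr1b the same difference of 0.22, with an unadjusted p of 0.135 by limma. Same-numbered arrays correlated by 0.128, 0.064 and 0.158 in their deviations from the group means, and the other pairs by -0.118 to 0.090. The labels do not say that arrays of the same number belong together, so the main fit does not treat them as pairs. Whether they are pairs was not tested. The replicate block turned Htr3b to -0.0061 and Adarb1 to -0.0019, the same values as without cocaine array 7. Of 221 values of the other 15 named genes, 214 kept their direction, and part of these was fixed in advance in the same way. Median centring turned Slc6a4 to 0.0104, and leaving out 1 array gave -0.036 to 0.023 for Slc6a4, -0.0061 to 0.031 for Htr3b and -0.0019 to 0.026 for Adarb1.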
